A study of Homo sapiens with 5 samples.

Results

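The serine, glycine and one-carbon enzymes were taken as 9 genes by their symbols in a table of 13638 transcript rows, each taken as a gene: PHGDH, PSAT1 and PSPH of serine synthesis, SHMT1 and MTHFD1 of the cytosolic folate cycle, and SHMT2, MTHFD2, MTHFD1L and ALDH1L2 of the mitochondrial folate cycle. All 9 had a row, and 8 passed the filter on low counts. Ribosome footprints, the stretches of mRNA that ribosomes shield from nuclease, had been counted in HAP1 cells, a near-haploid human line that goes back to a chronic myeloid leukaemia. There were 2 libraries of wild-type cells and 3 of ZCCHC4 knockout cells, all from lysates made with cycloheximide, with no other treatment given in the labels. ZCCHC4 methylates 28S ribosomal RNA, and the knockout libraries allow the question of how footprints are divided among genes without it. Whether the knockout was 1 clone or several, and whether replicates were separate cultures, is not given in the sources used here, so the p-values cover only the spread among the deposited libraries, part of which could be technical.

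Cells make serine from the glycolytic intermediate 3-phosphoglycerate in a chain of PHGDH, PSAT1 and PSPH. The SHMT enzymes then pass a carbon of serine to tetrahydrofolate and leave glycine, and the MTHFD enzymes oxidise, convert or release the folate-bound carbon as formate. The reactions run in mitochondria and in the cytosol with separate enzymes, and proliferating cells commonly run the mitochondrial arm towards formate, which the cytosolic arm uses for purines, thymidylate and methionine. Many genes of serine synthesis and of the mitochondrial arm are known to be activated by ATF4, a transcription factor induced when amino acids run short.

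Promoters are shown because the members moved in opposite directions, so that the start regions of the genes that fell can be read beside those of the genes that rose. RefSeq sequences (GRCh38.p14, 250 bases before to 50 after a start site, gene strand) matched 6 of the 9 members; PSPH, SHMT2 and ALDH1L2 had no entry. Capitals mark matches on either strand to TGATGNAA, the core of the C/EBP-ATF response element bound by ATF4, to CACGTG, the E-box that MYC binds, and to CCAAT, the box bound by NF-Y. The first 2 motifs were chosen from what is known of these genes, and CCAAT after the sequences had been read. No 2 matches overlapped. The first 4 sequences belong to genes that were lower in the knockout libraries.
PHGDH, chr1:119711684-119711983, plus strand: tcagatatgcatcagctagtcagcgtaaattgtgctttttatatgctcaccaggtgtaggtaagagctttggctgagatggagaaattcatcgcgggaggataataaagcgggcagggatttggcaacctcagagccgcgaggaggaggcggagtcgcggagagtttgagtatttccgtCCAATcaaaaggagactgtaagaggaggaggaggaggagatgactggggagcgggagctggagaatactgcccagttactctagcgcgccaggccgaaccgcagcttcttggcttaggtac
PSAT1, chr9:78296875-78297174, plus strand: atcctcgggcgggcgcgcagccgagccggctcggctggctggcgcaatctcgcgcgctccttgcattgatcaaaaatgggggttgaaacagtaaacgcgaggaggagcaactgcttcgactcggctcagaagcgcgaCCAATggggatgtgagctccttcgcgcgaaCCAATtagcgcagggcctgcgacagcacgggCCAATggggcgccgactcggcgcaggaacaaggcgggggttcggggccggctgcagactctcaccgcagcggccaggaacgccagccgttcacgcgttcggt
MTHFD2, chr2:74198365-74198664, plus strand: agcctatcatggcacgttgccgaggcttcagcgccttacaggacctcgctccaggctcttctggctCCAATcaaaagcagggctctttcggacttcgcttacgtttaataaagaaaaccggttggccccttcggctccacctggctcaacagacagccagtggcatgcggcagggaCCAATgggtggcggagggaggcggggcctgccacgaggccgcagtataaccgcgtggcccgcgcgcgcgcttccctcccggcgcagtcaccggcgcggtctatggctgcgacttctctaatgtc
MTHFD1L, chr6:150866083-150866382, plus strand: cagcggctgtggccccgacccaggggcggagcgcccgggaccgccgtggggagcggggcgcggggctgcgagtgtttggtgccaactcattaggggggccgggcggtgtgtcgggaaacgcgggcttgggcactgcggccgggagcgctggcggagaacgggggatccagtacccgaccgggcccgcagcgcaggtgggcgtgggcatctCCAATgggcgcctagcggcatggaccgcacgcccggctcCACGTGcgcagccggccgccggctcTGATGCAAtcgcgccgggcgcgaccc
SHMT1, chr17:18363501-18363800, minus strand: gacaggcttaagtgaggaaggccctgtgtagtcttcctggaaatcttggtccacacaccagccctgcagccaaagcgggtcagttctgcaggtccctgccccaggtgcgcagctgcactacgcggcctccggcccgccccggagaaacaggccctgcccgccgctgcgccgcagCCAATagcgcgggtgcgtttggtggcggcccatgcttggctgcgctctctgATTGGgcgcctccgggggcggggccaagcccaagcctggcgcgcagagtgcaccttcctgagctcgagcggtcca
MTHFD1, chr14:64388103-64388402, plus strand: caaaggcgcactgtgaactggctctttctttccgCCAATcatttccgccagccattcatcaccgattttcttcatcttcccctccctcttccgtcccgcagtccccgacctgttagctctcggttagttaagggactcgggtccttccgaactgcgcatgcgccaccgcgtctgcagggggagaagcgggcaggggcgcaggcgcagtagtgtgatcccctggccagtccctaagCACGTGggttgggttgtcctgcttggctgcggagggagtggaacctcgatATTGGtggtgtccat

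The ATF4 element was present in MTHFD1L alone, as TGATGCAA, 24 bases after the start site of the window shown. MTHFD1L has 4 RefSeq windows, and 3 overlapping ones hold this same match, at -129 and -90 bases from the start site in those not shown. The counted MTHFD1L transcript starts at 150865549, upstream of all 4 windows. The element occurs in 3.62% of the 34943 distinct promoter windows of this length. The E-box was present in MTHFD1L and in MTHFD1, which moved in opposite directions, against 7.23% of all windows. A CCAAT box was present in all 6 members that had a sequence, with 3 matches in PSAT1, 2 each in SHMT1, MTHFD1 and MTHFD2, and 1 each in PHGDH and in the MTHFD1L window shown. It occurs in 34.6% of all windows. It is thus found in genes whose footprints fell, such as PSAT1, and in SHMT1 and MTHFD1, whose footprints rose. The letters describe these windows only, and binding was not measured.

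The wild-type libraries held 5302160 and 4887380 counts, and the knockout libraries between 16940732 and 31557573, so depth and genotype moved together. Levels are CPM, counts relative to the library total, after TMM scaling, which sets the libraries to a common level over most genes, so every change is relative to other genes. A footprint count follows both the amount of an mRNA and its occupancy by ribosomes, and these cannot be told apart here. ZCCHC4 itself was at 16.0 and 13.3 CPM in wild type and between 3.41 and 4.98 CPM in the knockout (log2 fold change -1.82 ± 0.20 SE, edgeR adjusted p = 7.27e-05). Knockout replicate 2 stood apart from replicates 1 and 3 (chi-square per degree of freedom 27.7 and 24.6, against 2.97 between those), and its value is given for each member. Of 8 haematopoietic markers, 3 had a row, with a summed level of 0.560 and 0.863 CPM in wild type and between 0.147 and 0.248 CPM in the knockout. CD34 was at 0.345 and 0.373 CPM in wild type and at 0 in the knockout. CD33 was at 0 in wild type and between 0.0339 and 0.0619 CPM in the knockout. A single count in a wild-type library is 0.1725 or 0.1867 CPM, so a difference in CD33 was not detectable. The 4 mesenchymal markers summed to 435.5 and 450.9 CPM in wild type and between 727 and 769 CPM in the knockout, and they moved in different directions. VIM was at 123 and 141 CPM in wild type and between 496 and 532 CPM in the knockout, CDH2 at 128 to 132 and 152 to 155 CPM, FN1 at 164 and 65.5 to 72.2 CPM, and COL1A1 at 16.2 to 17.9 and 8.36 to 12.3 CPM. Of 4 epithelial markers, 3 had a row, with a sum of 145 and 154 CPM in wild type and between 135 and 157.5 CPM in the knockout, nearly all of it KRT18. EPCAM was at 1.21 and 1.49 CPM in wild type and between 4.21 and 5.17 CPM in the knockout, and CDH1 was at 0 in 4 of the 5 libraries. The part of these differences in the results was not tested.

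Among the tested members, serine synthesis and mitochondrial folate genes were lower in the knockout libraries and cytosolic folate genes were higher. All 3 serine synthesis genes fell, by 2.83-fold in PHGDH, 1.74-fold in PSAT1 and 1.30-fold in PSPH. The 3 mitochondrial genes that could be tested fell by 2.04-fold in SHMT2, 1.96-fold in MTHFD1L and 1.61-fold in MTHFD2. Both cytosolic genes rose, SHMT1 by 1.51-fold and MTHFD1 by 1.39-fold. In all, 6 of the 8 tested members fell and 2 rose (edgeR quasi-likelihood test, Benjamini-Hochberg adjusted p under 0.05 over 11205 genes). Of all genes tested, 29.8% fell, 30.2% rose and 60.0% did either, so a call by itself is common in these libraries. The median log2 fold change was -0.74 over the 8 members and 0.02 over all genes. The change was larger in 6 of the 8 members than the median size of 0.52 over all genes. The genotypes did not overlap in any of the 8 members, which was also the case for 76.4% of all genes, 38.5% with the knockout higher and 37.9% with it lower. Earlier results of these data were known when the members were chosen.

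**Figure D1:**
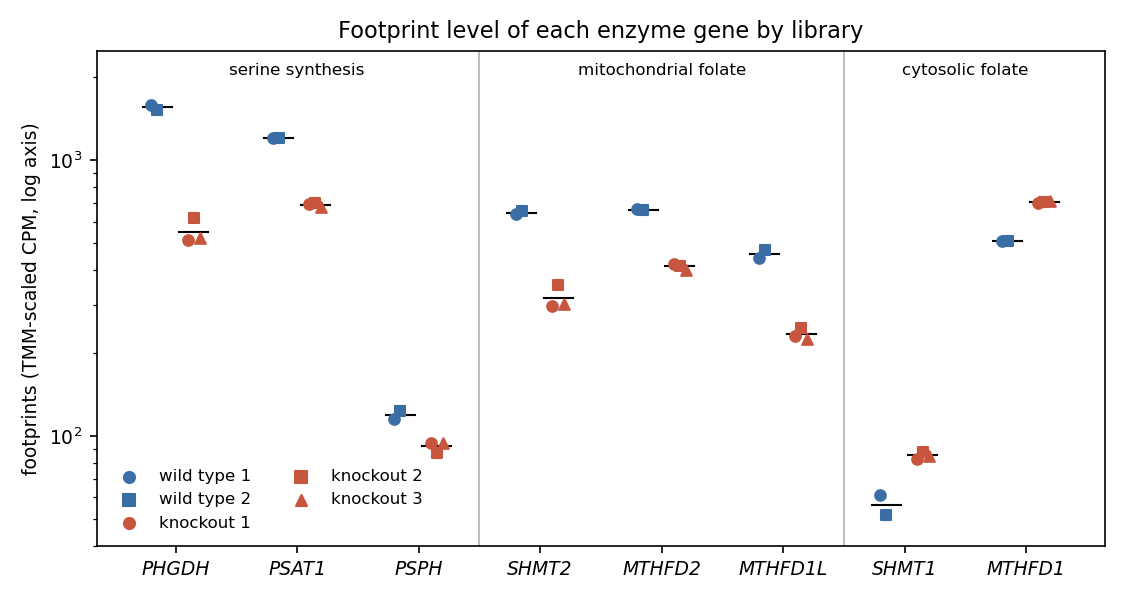
Footprint level (TMM-scaled CPM, log axis) of the 8 tested enzyme genes in each library, with wild type in blue, knockout in red, replicates by symbol and group means as black bars. All knockout points lie below the wild-type points for the 6 genes of serine synthesis and mitochondrial folate and above them for SHMT1 and MTHFD1. Knockout replicate 2 lies highest of the knockout libraries in PHGDH, PSAT1, SHMT2, MTHFD1L and SHMT1.

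PHGDH, which oxidises 3-phosphoglycerate in the committed step of serine synthesis, had the largest change of the members. Its transcript (ENST00000369409, GENCODE 29 on GRCh38, chromosome 1, 119711934 to 119744212, plus strand, 12 exons) was at 1590 and 1528 CPM in wild-type replicates 1 and 2 and at 514, 619 and 522 CPM in knockout replicates 1, 2 and 3. The knockout level was 35.4% of the wild-type level, and knockout replicate 2 was the nearest to wild type. The means were 1559 ± 43.4 CPM (SD, n = 2) and 552 ± 58.2 CPM (SD, n = 3), a log2 fold change of -1.50 ± 0.09 (SE) with an edgeR adjusted p of 1.65e-06. Ordered from the lowest log2 fold change upwards, PHGDH stood at place 873 of the 11205 genes.

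PSAT1, the aminotransferase of the second step, was the most uniform of the serine synthesis genes between replicates. It lies on chromosome 9 (78297143 to 78330093, plus strand, 9 exons). Its levels were 1206 and 1203 CPM in wild type and 695, 701 and 679 CPM in the knockout, with no library standing apart. The wild-type values, from 6989 and 6443 counts, lay closer together than counting error usually leaves. The log2 fold change was -0.80 ± 0.06 (SE; edgeR adjusted p = 5.36e-06), and the knockout held 57.4% of the wild-type level.

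PSPH, the phosphatase that releases serine, fell least. It lies on chromosome 7 (56011067 to 56051604, minus strand, 8 exons). It was at 116 and 123 CPM in wild type and at 94.1, 87.0 and 94.1 CPM in the knockout, so that knockout replicate 2 was here the lowest library. The log2 fold change was -0.38 ± 0.08 (SE; edgeR adjusted p = 0.00368), smaller in size than that of the median gene. Without wild-type replicate 2 it no longer passed (adjusted p = 0.0607), nor did it with the most alike libraries summed (adjusted p = 0.149), and the log2 fold change ran from -0.60 to -0.34 over 16 alternatives. A fit without a wild-type library holds 1 wild-type sample, which is assumed to vary like the knockout libraries, here and for the genes described further on.

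SHMT2, the mitochondrial enzyme that splits serine into glycine and a folate-bound carbon, fell most among the folate genes. It lies on chromosome 12 (57229327 to 57234931, plus strand, 12 exons). It was at 641 and 653 CPM in wild type and at 297, 354 and 300.2 CPM in the knockout. The log2 fold change was -1.03 ± 0.09 (SE; edgeR adjusted p = 1.39e-05). As in PHGDH, knockout replicate 2 stood above the other two, at 1.19 times their mean in both genes. Over the 11166 tested genes with a count in replicate 1 or 3, the same ratio had a median of 1.00, and it was below 0.689 in 5% of genes and above 1.465 in another 5%. Without knockout replicate 2 all 8 calls stood, with PHGDH at -1.59 and SHMT2 at -1.12 on the log2 scale. That fit also called more of all genes, 4164 higher and 4012 lower of 11161, against 3380 and 3341 of 11205 in the main fit.

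MTHFD2, which oxidises the folate-bound carbon in mitochondria, and MTHFD1L, which releases it there as formate, also fell. MTHFD2 (chromosome 2, 74198562 to 74217565, plus strand, 8 exons) was at 666 and 660.2 CPM in wild type and at 421, 415 and 401 CPM in the knockout. Its log2 fold change was -0.69 ± 0.06 (SE; edgeR adjusted p = 1.98e-05), with little spread within either genotype. MTHFD1L (chromosome 6, 150865549 to 151101887, plus strand, 28 exons) was at 443 and 473 CPM in wild type and at 230.4, 246 and 226 CPM in the knockout. The knockout held 51.1% of its wild-type level, a log2 fold change of -0.97 ± 0.07 (SE; edgeR adjusted p = 7.00e-06).

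ALDH1L2, the mitochondrial enzyme that oxidises formyl-tetrahydrofolate to carbon dioxide, was at the limit of detection in both genotypes. It had no count in 4 libraries and 1 count in knockout replicate 3. A count of 0 allows up to 3 counts, which is at most 0.560 CPM in a wild-type library and 0.186 CPM in a knockout library, for counting error only. No fold is given, and a difference between the genotypes was not detectable at this depth.

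SHMT1, the cytosolic counterpart of SHMT2, was the tested member with the fewest counts. It lies on chromosome 17 (18327873 to 18363487, minus strand, 12 exons), with 354 and 276 counts in the wild-type libraries. Its levels were 61.1 and 51.5 CPM in wild type and 82.8, 87.8 and 84.6 CPM in the knockout. The log2 fold change was 0.59 ± 0.10 (SE; edgeR adjusted p = 8.12e-04), and the wild-type libraries differed more from each other than the knockout libraries did.

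MTHFD1, the cytosolic enzyme with several activities that takes up formate and interconverts folate-bound carbon, rose, and its levels lay close together within each genotype. It lies on chromosome 14 (64388350 to 64460004, plus strand, 28 exons). It was at 509.9 and 510.1 CPM in wild type and at 703, 704 and 714 CPM in the knockout. The wild-type values came from 2956 and 2732 counts and lay closer together than counting error usually leaves. Their spread is therefore no measure of how much the gene varies. The log2 fold change was 0.47 ± 0.06 (SE; edgeR adjusted p = 1.55e-04), just under the median size over all genes. With library totals in place of TMM, a setting that moved the median of all genes by -0.22, the rises were smaller, at 0.38 in SHMT1 and 0.25 in MTHFD1, and both still passed.

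**Figure D2:**
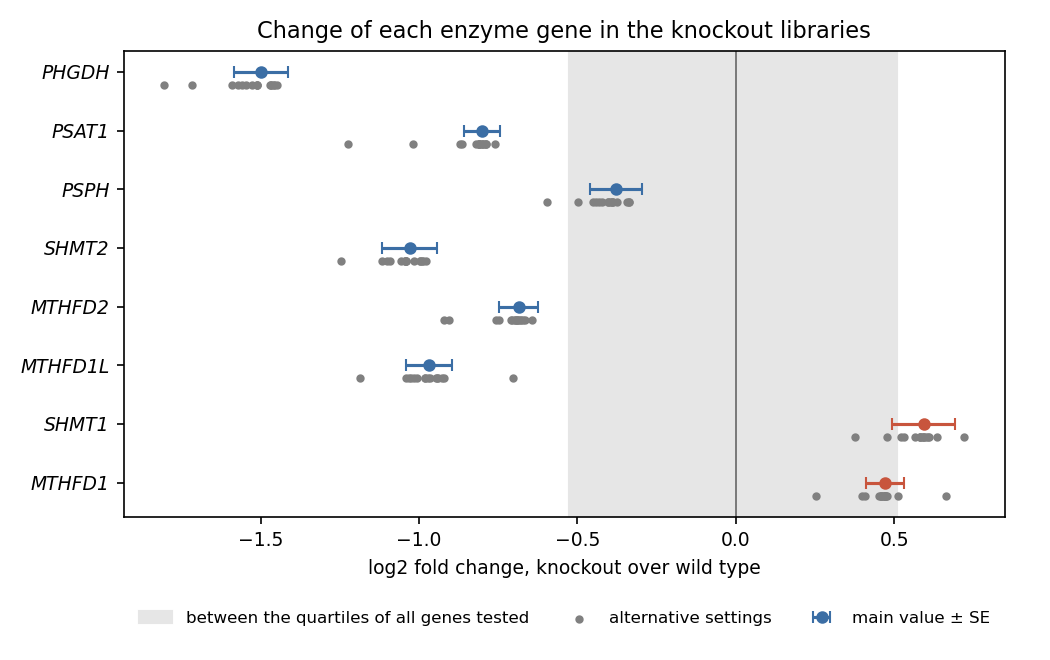
Log2 fold change, knockout over wild type, of the 8 tested enzyme genes with its standard error, alternative settings as grey points and the range between the quartiles of all genes (-0.53 to 0.51) shaded. The 6 genes of serine synthesis and mitochondrial folate lie left of zero and the cytosolic SHMT1 and MTHFD1 right of it under every alternative drawn, and PSPH and MTHFD1 lie inside the shaded range.

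Footprints per length gave the order of the members. Divided by coding length, the densities in wild type were 1085 ± 1.70 CPM per kb in PSAT1, 977 ± 27.2 in PHGDH, 631 ± 3.69 in MTHFD2 and 428 ± 5.82 in SHMT2 (SD, n = 2). MTHFD1 at 182 ± 0.0431, PSPH at 177 ± 7.44 and MTHFD1L at 156 ± 7.35 CPM per kb followed. MTHFD1 and PSPH changed places between the 2 wild-type libraries and did not differ beyond their spread, while SHMT1 was lowest of the tested members at 38.9 ± 4.65 CPM per kb. PSAT1 stood above 98.9% of the 13528 rows with a coding length, and SHMT1 above 75.1%.

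In the knockout, MTHFD2 stood above PHGDH and MTHFD1 above SHMT2, the reverse of both orders in wild type, in each of the 3 libraries. PSAT1 stayed first at 623 ± 10.2 CPM per kb (SD, n = 3), followed by MTHFD2 at 393 ± 9.29 and PHGDH at 346 ± 36.5. The ranges of MTHFD2 and PHGDH overlapped across libraries, since PHGDH reached 388 CPM per kb in replicate 2 and MTHFD2 was at 382 in replicate 3. MTHFD1 at 252 ± 2.03 CPM per kb lay above SHMT2 at 209.7 ± 21.5 without overlap, and PSPH at 136 ± 6.08, MTHFD1L at 79.8 ± 3.67 and SHMT1 at 58.7 ± 1.77 kept the last places. These orders are a description, with no test.

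**Figure D3:**
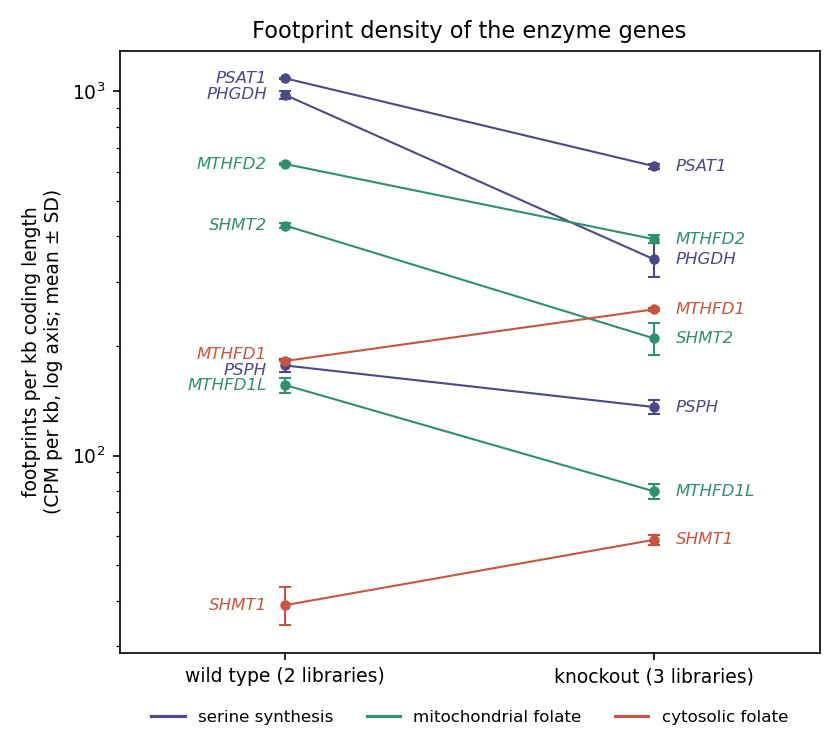
Footprint density (CPM per kb of coding length, log axis) of the 8 tested enzyme genes as mean ± SD in wild type (n = 2) and knockout (n = 3), with lines coloured by role. Lines of serine synthesis and mitochondrial folate genes run down and those of SHMT1 and MTHFD1 run up, so that MTHFD1 crosses SHMT2 and MTHFD2 crosses PHGDH.

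The balance between the compartments can be read within each library, where scaling between libraries plays no part. SHMT2 had 10.1 and 12.2 times the footprint density of SHMT1 in wild type and 3.43, 3.87 and 3.40 times in the knockout. The ratio was 3.10-fold lower in the knockout, a difference of -1.63 on the log2 scale. MTHFD2 had 3.49 and 3.46 times the density of MTHFD1 in wild type and 1.60, 1.57 and 1.50 times in the knockout, a ratio 2.23-fold lower. MTHFD1L, close to MTHFD1 in wild type at 0.830 and 0.887 times its density, was at 0.313, 0.334 and 0.302 times in the knockout, a ratio 2.71-fold lower. Summed over the members of each arm, mitochondrial density was 5.40 and 5.62 times the cytosolic density in wild type and 2.19, 2.29 and 2.10 times in the knockout. The size of this ratio depends on the number of genes summed, here 4 mitochondrial genes, ALDH1L2 among them, and 2 cytosolic genes.

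Within an arm the members did not move in proportion either. PSAT1 had 1.09 and 1.13 times the density of PHGDH in wild type and 1.94, 1.63 and 1.87 times in the knockout, and PSPH had 0.172 and 0.190 times and then 0.432, 0.332 and 0.426 times. MTHFD2 over MTHFD1L moved least of the 6 pairs, from 4.20 and 3.90 times to 5.10, 4.71 and 4.97 times, or 0.28 on the log2 scale. The genotypes did not overlap in any of the 6 ratios. Single genes did not overlap in 76.4% of all genes tested, and the share over all gene pairs was not computed. The 6 ratios use the same counts as the changes of the members, so they add no separate result. An exact two-sided permutation test over the 5 libraries gave p = 0.1 for each, also p = 0.1 after adjustment over the 6 pairs, which is the smallest p that 2 against 3 libraries allow, so this test cannot reach 0.05.

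**Figure D4:**
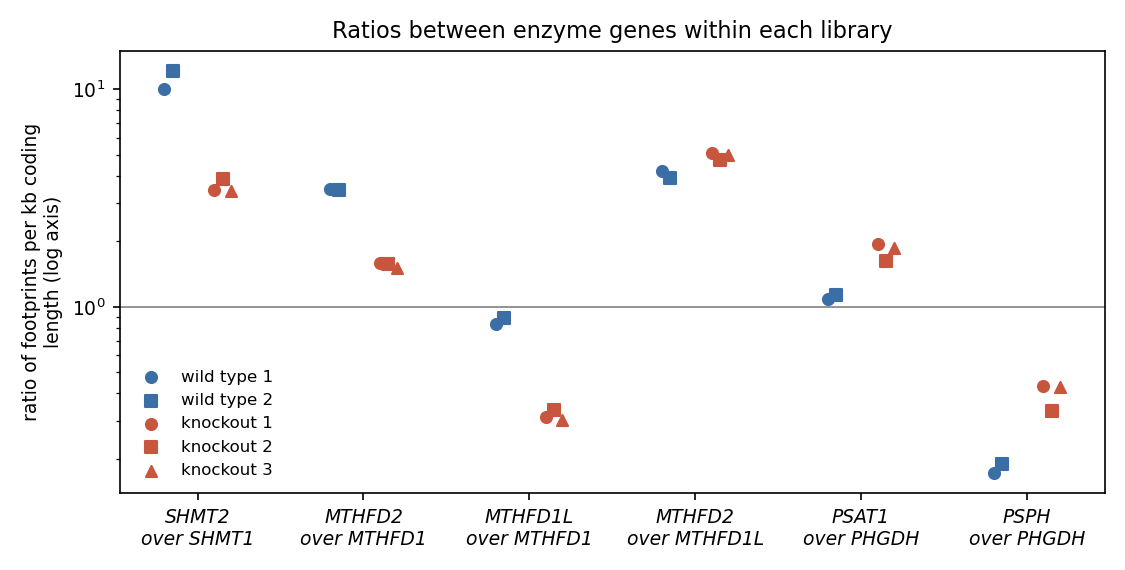
Ratio of footprint densities (per kb of coding length, log axis) for 6 pairs of enzyme genes in each library, wild type in blue and knockout in red, with a line at equal density. Ratios of mitochondrial to cytosolic genes are lower in all 3 knockout libraries, and the ratios of PSAT1 and PSPH to PHGDH and of MTHFD2 to MTHFD1L are higher.

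The 9 genes together took 0.572% and 0.570% of a wild-type library's counts, and in the knockout 0.284%, 0.306% and 0.283%. Serine synthesis went from 0.316 ± 0.00389% (SD, n = 2) to 0.126 ± 0.00727% (SD, n = 3) and the mitochondrial genes from 0.194 ± 0.00322% to 0.0907 ± 0.00532%. The cytosolic pair went the other way, from 0.0620 ± 6.23e-04% to 0.0745 ± 0.00101%. These shares use library totals without TMM scaling. PHGDH and PSAT1 had the most counts of the 9 genes in wild type, and MTHFD1 and PSAT1 in the knockout.

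Some members share sequence with pseudogenes, which matters because the treatment of reads that map to several places is not given in the sources used here. Of all 28-base windows of the coding sequence, the shortest footprint length selected, 36.4% in PSAT1 were found in GENCODE 29 transcripts of other genes, as were 32.0% in MTHFD2, 29.9% in PSPH, 21.6% in MTHFD1, 13.2% in SHMT1 and 2.34% in MTHFD1L. No window was shared in PHGDH, SHMT2 or ALDH1L2. None of the members shared a window with another member, so reads of SHMT1 and SHMT2, or of the MTHFD genes, could not be exchanged by perfect matches of this length. PHGDH and SHMT2, the members that fell most in their groups, were thus unique among these transcripts at this length, while single values of the members with shared windows are less certain.

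Other genes of serine, glycine, folate and methionine metabolism moved in both directions. Of 43 listed genes, 36 had a row and 32 were tested; 14 rose and 12 fell, with a median log2 fold change of 0.02. These are 43.8% and 37.5%, against 30.2% and 29.8% of all genes. Without wild-type replicate 1 the counts were 9 and 7, without wild-type replicate 2 they were 9 and 8, and with library totals 10 and 13. Among carriers, 3 of 8 rose and 4 fell. The smallest of these rises, in SLC38A2 (0.19), was lost in 11 of 15 alternatives and turned to -0.03 with library totals, and the fall of SLC7A10 (-2.08) was lost in 3 of 11, which were DESeq2 and leaving out either wild-type replicate. SLC6A9, a glycine transporter, was at 53.3 and 54.7 CPM in wild type and between 7.63 and 11.0 CPM in the knockout (-2.51 ± 0.15), and SLC38A1, which imports neutral amino acids, fell by 0.48 on the log2 scale. SFXN1, which carries serine into mitochondria, rose from 130.4 and 142.5 CPM to between 192 and 205 CPM (0.53 ± 0.08), opposite to SHMT2, which uses that serine. SFXN2 was higher by 2.47, from a low level of 0.863 and 1.31 CPM. SLC7A10 was also low, at 0.69 and 0.747 CPM in wild type and between 0.0733 and 0.237 CPM in the knockout, and had a value in 11 of the 15 alternatives.

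Glycine cleavage and folate supply genes that passed were mostly higher. GCSH, the lipoyl carrier protein of the glycine cleavage system, rose from 58.1 and 53.2 CPM to between 114 and 159 CPM (1.36 ± 0.16). DLD, a dehydrogenase shared with other mitochondrial complexes, rose by 0.59 on the log2 scale. GLDC, the decarboxylase that starts glycine cleavage, was left out by the filter at no more than 0.367 CPM in any library, so a rise of GCSH and DLD stood beside a near absence of the first enzyme. Serine racemase SRR fell by 0.45 on the log2 scale, a call lost without wild-type replicate 1, with the replicate number as a block and with the most alike libraries summed (highest adjusted p = 0.178).

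Of 5 tested genes for folate uptake and retention, 4 rose and none fell by edgeR's test. Among all genes tested, 30.2% rose and 29.8% fell. SLC19A1 and FOLR2, also on this list, had no row. All 5 tested genes had log2 fold changes above zero. FPGS, however, was below zero in 4 of 15 alternatives and lowest, at -0.17, with library totals. The calls of GGH and SLC46A1 were lost with library totals (adjusted p of 0.596 and 0.0919) and when either wild-type replicate was left out, so that 2 of the 5 genes then rose. GGH was lost in 8 of 15 alternatives in all, the replicate block among them, and SLC46A1 in 4. SLC25A32, which carries folate into mitochondria, was at 38.3 and 37.7 CPM in wild type and between 50.5 and 56.3 CPM in the knockout (0.51 ± 0.10), a call lost with the most alike libraries summed (adjusted p = 0.0813). FOLR1, a folate receptor, had no count in wild type and 78, 48 and 89 counts in the knockout, at least 11.0-fold higher taking 3 counts in the wild-type libraries together as the floor. In the other interconversion steps, MTHFS, which returns a formyl storage form of folate to the folate pool, rose by 0.73 on the log2 scale. ALDH1L1, the cytosolic counterpart of ALDH1L2, fell from 7.42 and 5.97 CPM to between 0.542 and 1.73 CPM (-2.93 ± 0.43). Both formyl-tetrahydrofolate dehydrogenase genes were therefore at low levels in the knockout libraries.

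Genes that use one-carbon units changed little, with GART of purine synthesis at 0.22 ± 0.06, ATIC of the same pathway at -0.25 ± 0.07 and the mitochondrial formyltransferase gene MTFMT at -0.29 ± 0.11 (SE). All 3 calls were lost when either wild-type replicate was left out, with the replicate block and with the most alike libraries summed, and GART was at 0.00 with library totals. In the methionine cycle and transsulfuration, 2 of 7 rose and 4 fell, against 30.2% and 29.8% of all genes. Of these falls, CBS (-0.31) was lost in 6 of 15 alternatives and MAT2A (-0.34) in 1. CTH, which makes cysteine, fell from 148.5 and 149 CPM to between 83.0 and 86.1 CPM (-0.82 ± 0.08), and MTR, methionine synthase, fell by 0.76. MAT2B, a regulatory subunit of S-adenosylmethionine synthesis, rose by 1.17 and the hydrolase gene AHCY by 0.51. MYC, a known regulator of serine synthesis genes, was at 275 and 281 CPM in wild type and between 323 and 351 CPM in the knockout (0.28 ± 0.07), and with library totals its log2 fold change was 0.06 (adjusted p = 0.463). The MYC call was also lost with the replicate block, with the most alike libraries summed and when either wild-type replicate was left out. ATF4 and NFE2L2 had no row and were not analysed here.

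**Figure D5:**
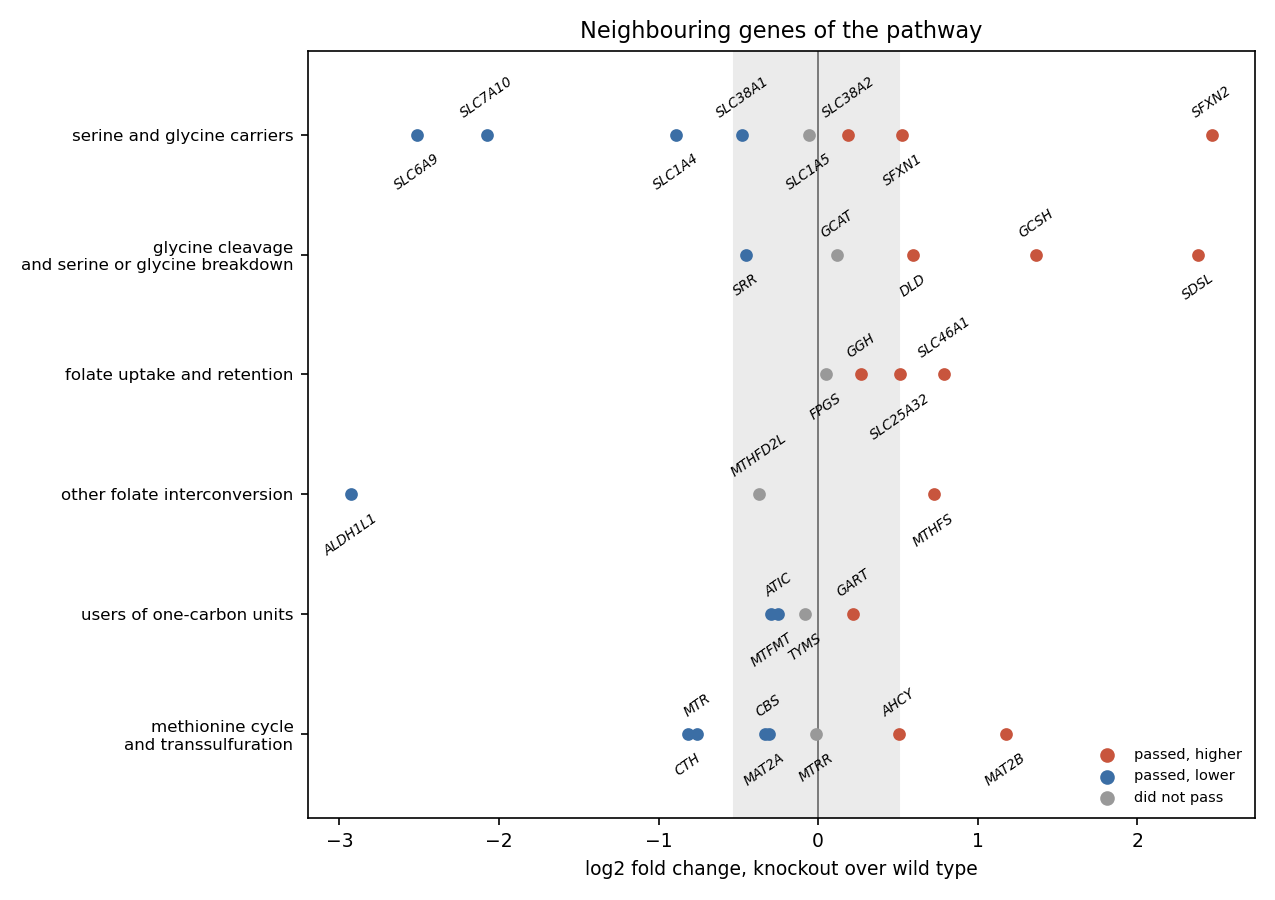
Log2 fold change, knockout over wild type, of the 32 tested genes around the 9 enzymes by their role, except FOLR1, which had no wild-type count. Genes past the test are in red (higher) or blue (lower) and the range between the quartiles of all genes is shaded. Carriers and methionine cycle genes lie on both sides of zero, and no gene of folate uptake and retention lies left of it.

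Over the 5 libraries, the genes with levels most like PHGDH, by the distance between centred log2(CPM + 0.5) values, were AEN (0.0525), EPHA2 (0.0907) and LOXL1 (0.102), against a median distance of 1.71 over all genes. Those most like SHMT1, the member with the largest rise, were PLPP3 (0.0523), CTGF (0.0723) and CDK2 (0.0724), against a median of 0.837. The log2 fold changes of these genes ran from -1.61 to -1.52 for the first group and from 0.63 to 0.66 for the second. Fold changes near those of PHGDH and SHMT1 follow from choosing genes by this distance.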

How the data were processed

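Ribosome footprints of HAP1 cells were measured in 2 wild-type and 3 ZCCHC4 knockout libraries, grouped by their titles. Per the labels' protocols, footprints of 28 to 32 nt came from monosomes after RNase I digestion. The submitters' processing notes name Bowtie, without a version, and hg38; how reads were counted, on which annotation and strand and with what removal of duplicates, is not given in the sources used here. The deposited table holds whole-number counts per transcript, not normalized; its header was shifted by 1 cell. The main test was edgeR 4.0.16 under R 4.3.3 (TMM, filterByExpr with a minimum count of 10, quasi-likelihood test, genotype as the only term), which kept 11205 of 13638 rows; SEs are the log2 fold change divided by the square root of F. The wild-type pair differed only slightly beyond sampling noise (chi-square 11664 on 10240 degrees of freedom, or 1.14 per degree of freedom) and was kept as 2 replicates. This does not show that they were separate cultures. Coding lengths came from GENCODE 29. Alternatives included DESeq2 1.42.0 and limma 3.58.1, and the fit was tested on simulated data. Members and lists were chosen with earlier results of these data known. Named were all members, ZCCHC4, listed regulators, and up to 2 rises and 2 falls with the smallest adjusted p in each pathway list. The 3 genes most like the members with the largest fall and rise were also named. GLDC, GGH, FPGS, SLC46A1, SLC38A2, SLC7A10, CBS and MAT2A were named after their values were seen, and SLC19A1 and FOLR2 because they had no row. Some listed genes are not reported here and were left out of the list counts.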

Additional observations from a re-analysis of the deposited data

How the results depend on the processing

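Over 15 alternatives with a test (other scalings, DESeq2, limma-voom, other filters, a replicate block, thinned knockout libraries, summed libraries and leaving out each library), 2 members were higher in every case. The number lower was 6 in 13 alternatives and 5 in the others, where PSPH did not pass. No member changed direction, also beyond a trend on coding length, GC content and wild-type level that was added after the data were seen; there PHGDH was at -1.80, PSAT1 at -1.23 and MTHFD1L at -0.70. Leaving out each library gave between 2387 and 4164 genes higher and between 2311 and 4012 lower over all genes, against 3380 and 3341, and between 9 and 14 pathway genes higher and between 7 and 14 lower, against 14 and 12. Without knockout replicate 2, all-gene calls rose to 4164 and 4012. With a mean count of at least 50, 9 pathway genes were higher, and with the most alike libraries summed, 7 were lower. Summing leaves fewer samples and the count minimum fewer genes. Library totals gave 2391 genes higher and 4564 lower; the cause was not tested.

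Replicate numbers were shared by 2 pairs of libraries and nothing in the labels ties them. Deviations from the group means correlated at -0.0507 for number 1 and at -0.0493 for number 2. With the number as a replicate block, 2 members were higher and 6 lower, 3068 and 3026 of all genes and 11 and 8 pathway genes. The block therefore moved no member's call. Leaving out each library moved the log2 difference of SHMT2 over SHMT1 between -1.77 and -1.50, MTHFD2 over MTHFD1 between -1.18 and -1.13, MTHFD1L over MTHFD1 between -1.49 and -1.39, MTHFD2 over MTHFD1L between 0.23 and 0.34, PSAT1 over PHGDH between 0.65 and 0.78 and PSPH over PHGDH between 1.05 and 1.25. Depth limits ALDH1L2 most, with 1 count in all.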
